A study of Mus musculus with 18 samples.

Results

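Enzymes of ceramide turnover were examined in mouse colon tumor libraries from animals on serine-free diets. They break ceramide down, convert it to other lipids, release it from sphingomyelin, or act on sphingosine and its phosphate. The group holds 10 genes, chosen by name among the 54354 rows of the deposited table: the ceramidases Asah1, Acer2 and Acer3, the sphingomyelinase Smpd1, the sphingomyelin synthases Sgms1 and Sgms2, the glucosylceramide synthase Ugcg, the sphingosine kinases Sphk1 and Sphk2 and the sphingosine-1-phosphate lyase Sgpl1. The libraries were prepared from poly(A) RNA with a kit that keeps strand. The extraction protocol names organoids, cell cultures that grow as small hollow tissue-like bodies, whereas the design text speaks of sorting live cells, and it is not settled which applies. There were 5 libraries of the serine-free control diet (SF_CD) and 5 of the high fat diet without serine (SF_HFD). Both groups carry a wild type genotype, colon as the tissue and tumor as the cell type in the labels, and both diets lack serine. Neither age nor strain is given in the sources used here.

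The remaining 8 libraries, from diets labelled CD and HFD, were not analysed here because the row labels do not name the genes of their counts: 6 of the 10 enzymes, like Actb and Gapdh, were at 0 in all 8. SF_CD totals were 499774 to 12841275 counts, SF_HFD totals 727610 to 12146933, and 3 libraries (SF_CD libraries 1 and 5 and SF_HFD library 5) had under 1000000. Ribosomal RNA, here rows typed as rRNA and as mitochondrial rRNA together, took 21.99% and 14.5% of the SF_CD libraries 1 and 5. It took 2.08% to 7.19% of the others. Levels are given as CPM, the count scaled to a common TMM-normalised library size. All 10 epithelial markers were detected, with a summed level of 2393 to 5229 CPM in SF_CD and 4659 to 7271 CPM in SF_HFD. The 7 smooth muscle markers summed to 2.94 to 24.4 CPM in SF_CD and 168 to 258 CPM in SF_HFD. The 9 fibroblast markers summed to 12.1 to 93.5 CPM and 70.7 to 136 CPM, and the 13 immune markers to 34.2 to 113 CPM and 18.4 to 48.6 CPM, with Cd3e, Cd4, Cd8a and Ms4a1 at 0 in all 10 libraries. The 6 endothelial markers summed to 3.86 to 33.8 CPM and 0 to 4.75 CPM. All 8 goblet cell markers were detected and summed to 78.2 to 282 CPM in SF_CD and 65.7 to 338 CPM in SF_HFD. Among them Muc2, the main intestinal mucin, was at 2.25 to 3.89 CPM in SF_CD and at most 0.0905 CPM in SF_HFD, and Zg16, a goblet cell lectin, at 8.20 to 40.9 CPM and at most 0.0905 CPM (edgeR adjusted p = 0.0017 and 0.000156). In the SF_HFD library 5, at 0 CPM for both, 3 counts correspond to 3.79 CPM, so a Muc2 level up to there is not excluded. The 2.25 and 3.89 CPM of Muc2 belong to the SF_CD libraries 1 and 5. There 3 counts correspond to 6.76 and 5.84 CPM. The goblet marker Agr2 averaged 152 CPM in SF_HFD against 94.6 CPM in SF_CD, and Clca1 2.54 CPM against 2.68 CPM. Both overlapped between the diets, as did Fcgbp, Spink4 and Tff3, whose means were lower in SF_HFD. Of the smooth muscle markers, Acta2, Actg2 and Myl9 were higher in SF_HFD (edgeR adjusted p = 0.00232, 0.0159 and 0.000156). The fibroblast marker Postn averaged 7.52 CPM in SF_HFD against 0.668 CPM in SF_CD (edgeR adjusted p = 0.00728). Its 0 in the SF_CD library 1 allows up to 6.76 CPM by 3 counts. The other tested fibroblast markers overlapped between the diets and were not called. Of the immune markers, Fcer1g was at 1.37 to 5.84 CPM in SF_CD and at most 0.0755 CPM in SF_HFD (edgeR adjusted p = 0.00826), and Lyz2 at 15.6 to 79.8 CPM and 0.691 to 15.2 CPM (edgeR adjusted p = 0.0760). The 0 of Fcer1g in the SF_HFD library 5 allows up to 3.79 CPM by 3 counts, within the SF_CD range. The immune markers S100a8 and Cd68 overlapped between the diets. S100a8 averaged 12.2 CPM in SF_HFD against 3.77 CPM in SF_CD (edgeR adjusted p = 0.366), and Cd68 21.4 CPM against 24.6 CPM (edgeR adjusted p = 0.898). The part of these other cell types in the results below was not tested, and fewer cells of a type and less RNA per cell cannot be told apart in bulk samples.

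Ceramide is the hub of sphingolipid metabolism. Ceramidases split it into sphingosine and a fatty acid, sphingomyelin synthases and glucosylceramide synthase attach a head group and so move it into membrane lipids, and sphingomyelinases release it again. Sphingosine can be phosphorylated to sphingosine-1-phosphate, a signalling lipid, which the lyase Sgpl1 cleaves irreversibly, the exit from the pathway. The title of the series names ceramides, whose synthesis starts from serine.

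With the quasi-likelihood test of edgeR, adjusted by Benjamini-Hochberg over 11780 genes, none of the 10 enzymes differed between SF_HFD and SF_CD at the 0.05 threshold. Over all genes tested, 0.323% were called, 0.153% as higher and 0.17% as lower in SF_HFD. DESeq2 and limma-voom also called 0 of the 10, beside 382 and 168 genes over the whole table. At an unadjusted edgeR p under 0.05 there was 1 of the 10, Acer2, against 11.6% of all genes. All 10 passed the filter on low counts. The fitted log2 fold changes lay between -0.87 and 1.47, with 7 above 0 and 3 below, and their median was 0.36, beside 0.02 over all genes tested. The groups did not overlap for 1 enzyme, Acer2, which was lower in SF_HFD, against 3.65% of all genes tested in either direction and 1.42% in that one.

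**Figure D1:**
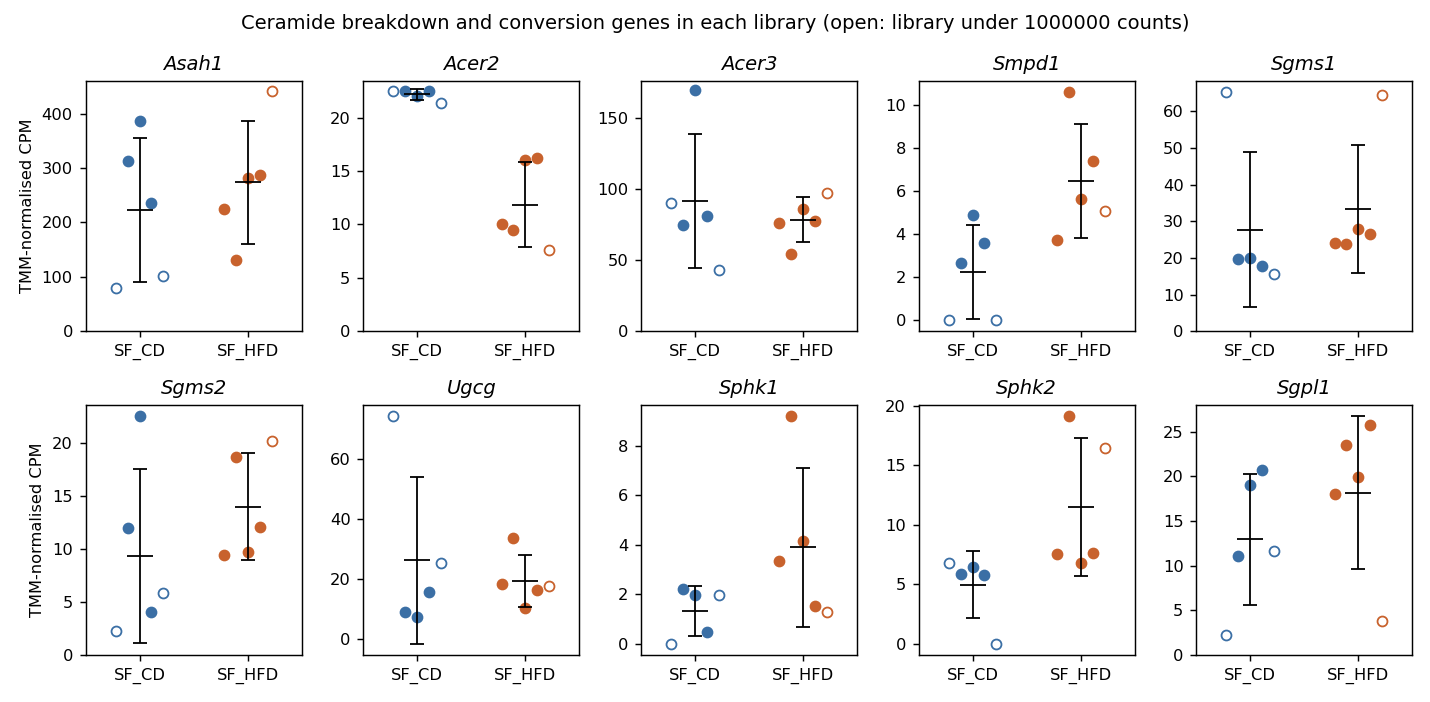
TMM-normalised CPM (vertical axes) of the 10 enzymes in the 5 SF_CD and 5 SF_HFD libraries; points are libraries in replicate order, open points have under 1000000 counts, and bars are the mean ± SD. Acer2 lies at 21.4 to 22.5 CPM in SF_CD and 7.58 to 16.2 CPM in SF_HFD, and the other 9 genes overlap between the diets.

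**Figure D2:**
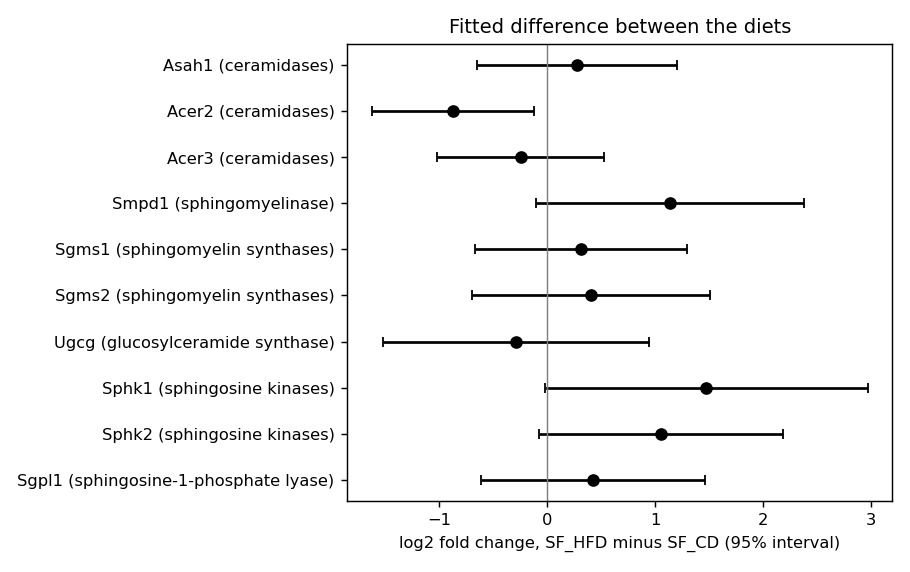
Fitted log2 fold changes of SF_HFD minus SF_CD (horizontal axis) with 95% intervals for the 10 enzymes, grouped by role. The interval of Acer2 lies below 0 before adjustment for the number of genes tested, and those of Smpd1, Sphk1 and Sphk2 reach from just below 0 to above 2.

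Among the ceramidases, Acer2 separated the diets and the more abundant Asah1 and Acer3 did not. Acer2, an alkaline ceramidase of the Golgi apparatus (ENSMUSG00000038007, mm10 chromosome 4, 86874396 to 86934822, plus strand), was at 22.5, 22.5, 22, 22.5 and 21.4 CPM in SF_CD libraries 1 to 5. In SF_HFD libraries 1 to 5 it was at 10.05, 9.45, 16.0, 16.2 and 7.58 CPM. Every SF_HFD library was thus below every SF_CD library. SF_HFD averaged 11.9 ± 3.99 CPM against 22.2 ± 0.490 CPM in SF_CD (SD, n = 5 each), and the fitted log2 fold change was -0.87 ± 0.35 (SE) with a 95% interval from -1.62 to -0.12. The unadjusted p was 0.0254 and the edgeR adjusted p 0.350. The SF_CD libraries agree more closely than counting alone would make them: the SF_CD libraries 1 and 5 hold 10 and 11 counts of Acer2, with exact Poisson intervals of 10.8 to 41.5 CPM and 10.7 to 38.3 CPM. These intervals overlap those of SF_HFD libraries, such as 13.7 to 18.6 CPM in library 3. The SF_HFD library 5 holds 6 counts, with an interval of 2.78 to 16.5 CPM. In the 7 libraries over 1000000 counts, Acer2 was at 22 to 22.5 CPM in the 3 of SF_CD and at 9.45 to 16.2 CPM in the 4 of SF_HFD. The log2 fold change without the 3 shallow libraries was -0.78 (edgeR adjusted p = 0.237), and 9.48% of all genes tested were separated in that direction in these 7 libraries.

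The sequences before the start sites of Acer2 and Smpd1 are shown because these enzymes act on opposite sides of the ceramide pool and their estimates lay on opposite sides of 0. Each is the 250 bases before a RefSeq start site, on the strand of the gene, from the table of build GRCm38.p6. Capitals mark GGGCGG (the GC box, or CCGCCC on the other strand) and CCAAT (or ATTGG), which do not overlap each other here. The Acer2 window is chr4:86874164-86874413 (plus strand) and the Smpd1 window chr7:105554110-105554359 (plus strand).
Acer2: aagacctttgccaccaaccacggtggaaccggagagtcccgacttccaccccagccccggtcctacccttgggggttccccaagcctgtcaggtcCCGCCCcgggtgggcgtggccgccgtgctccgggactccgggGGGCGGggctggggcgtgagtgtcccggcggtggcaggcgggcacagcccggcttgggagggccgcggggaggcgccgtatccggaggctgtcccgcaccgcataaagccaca
Smpd1: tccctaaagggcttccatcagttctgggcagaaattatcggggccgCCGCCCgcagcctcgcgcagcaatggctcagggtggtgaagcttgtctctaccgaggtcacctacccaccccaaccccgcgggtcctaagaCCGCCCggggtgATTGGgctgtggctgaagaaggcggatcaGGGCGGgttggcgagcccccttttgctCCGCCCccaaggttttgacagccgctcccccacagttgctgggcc
The Acer2 window holds GGGCGG at 2 positions and no CCAAT, the Smpd1 window holds GGGCGG at 4 positions and CCAAT at 1, and neither holds the E-box CACGTG. Over 32851 such windows of the table, 32.7% hold GGGCGG, 33.8% hold CCAAT and 6.02% hold CACGTG. Of the 23 windows that belong to 9 of the 10 enzymes, some of which overlap, 11 hold GGGCGG, 7 hold CCAAT and 3 hold CACGTG.

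Asah1, the acid ceramidase of lysosomes (ENSMUSG00000031591, chromosome 8, 41340197 to 41374773, minus strand), was the most abundant of the 10. It was at 78.9, 314, 387, 235 and 101 CPM in SF_CD and at 224, 132, 283, 288 and 442 CPM in SF_HFD. The spread within each diet covered most of the range, and the SF_CD libraries 1 and 5 were the lowest of all. The means were 274 ± 113 CPM in SF_HFD and 223 ± 133 CPM in SF_CD (log2 fold change 0.28 ± 0.44, 95% interval -0.65 to 1.21, edgeR adjusted p = 0.861). Without the 3 libraries under 1000000 counts the log2 fold change of Asah1 was -0.43, the opposite sign. Acer3, an alkaline ceramidase that prefers unsaturated long-chain substrates (chromosome 7, 98206389 to 98321208), was at 90.2, 74.8, 169, 81.2 and 42.8 CPM in SF_CD. In SF_HFD it was at 76.1, 54.4, 85.8, 77.2 and 97.3 CPM, inside the SF_CD range in every library. Its log2 fold change was -0.25 ± 0.37 (95% interval -1.02 to 0.53) and turned to 0.11 without the SF_CD library 3.

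The share of Acer2 in the summed counts of Acer2 and Acer3 does not depend on how libraries are scaled. It was 20%, 23.1%, 11.5%, 21.7% and 33.3% in SF_CD libraries 1 to 5 and 11.7%, 14.8%, 15.7%, 17.4% and 7.23% in SF_HFD libraries 1 to 5. The SF_CD library 3, where Acer3 was highest, lay among the SF_HFD values, and the other 4 SF_CD libraries were above all of SF_HFD. The mean share was 13.4% ± 4.005 in SF_HFD and 21.9% ± 7.81 in SF_CD (SD, n = 5 each), a difference of -8.58 percentage points (exact two-sided permutation test, p = 0.0556, and 0.167 adjusted over the 3 shares tested). The smallest p this design allows is 0.00794. The difference was -3.40 points from summed counts, and -3.89 points in the 7 libraries over 1000000 counts (exact permutation p = 0.286). Leaving out any 1 library other than the SF_CD library 3 gave exact permutation p from 0.0635 to 0.119.

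Smpd1, the acid sphingomyelinase of lysosomes, which returns ceramide from sphingomyelin (chromosome 7, 105554360 to 105558389, plus strand), was low throughout. It was at 0, 2.64, 4.90, 3.57 and 0 CPM in SF_CD and at 3.71, 10.6, 5.64, 7.40 and 5.05 CPM in SF_HFD. The zeros fall in the SF_CD libraries 1 and 5, where 3 counts, the limit taken for a 0, correspond to 6.76 and 5.84 CPM. These zeros therefore do not exclude a level like the 2.64 to 4.90 CPM of the other SF_CD libraries. SF_HFD averaged 6.48 ± 2.66 CPM against 2.22 ± 2.18 CPM in SF_CD, for a fitted log2 fold change of 1.14 ± 0.59 (95% interval -0.10 to 2.38, edgeR adjusted p = 0.466). In the libraries over 1000000 counts, Smpd1 was at 2.64 to 4.90 CPM in SF_CD and at 3.71 to 10.6 CPM in SF_HFD, still overlapping, with a log2 fold change of 0.87.

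The sphingomyelin synthases, which transfer a phosphocholine head group to ceramide, did not differ between diets beyond their spread. Sgms1, the Golgi enzyme (chromosome 19, 32122727 to 32389714, minus strand), was at 65.4, 19.8, 19.9, 17.7 and 15.6 CPM in SF_CD and at 24.2, 23.7, 27.8, 26.6 and 64.4 CPM in SF_HFD. One library of each diet stood far above its group, the SF_CD library 1 with 29 counts and the SF_HFD library 5 with 51. The means were 33.3 ± 17.5 CPM and 27.7 ± 21.2 CPM (log2 fold change 0.31 ± 0.46, 95% interval -0.67 to 1.296, edgeR adjusted p = 0.849). In the 7 deep libraries the groups of Sgms1 did not overlap, at 17.7 to 19.9 CPM in SF_CD and 23.7 to 27.8 CPM in SF_HFD, as for 9.47% of all genes in that direction. Its log2 fold change there was 0.42 (edgeR adjusted p = 0.376), and it was -0.04 without the SF_HFD library 5 alone.

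Sgms2, the synthase found mainly at the plasma membrane (chromosome 3, 131318985 to 131491411, minus strand), was at 2.25, 12.0, 22.6, 4.02 and 5.84 CPM in SF_CD and at 9.41, 18.7, 9.71, 12.1 and 20.2 CPM in SF_HFD. The SF_CD values spanned those of SF_HFD, though those of the SF_CD libraries 1 and 5 rest on 1 and 3 counts. The log2 fold change was 0.41 ± 0.52 (95% interval -0.69 to 1.51). It was -0.05 without the 3 shallow libraries, 1.04 without the SF_CD library 3 and 0.16 without the SF_CD library 4. The share of Sgms2 in the counts of both synthases was 3.33%, 37.7%, 53.1%, 18.5% and 27.3% in SF_CD and 28.0%, 44.0%, 25.9%, 31.2% and 23.9% in SF_HFD. The 3.33% rests on 1 of 30 counts and the 27.3% on 3 of 11. The exact 95% binomial interval was 47.3% to 58.9% in the SF_CD library 3 and 14.2% to 23.5% in the SF_CD library 4, both deep libraries, so libraries of 1 diet differed by more than counting error. The mean shares of Sgms2 were 30.6% ± 7.98 and 28.0% ± 18.9 (exact two-sided permutation test, p = 0.786, adjusted p = 0.873). The difference of 2.61 percentage points turned to -3.55 without the SF_CD library 1 and to -0.74 without the SF_HFD library 2.

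**Figure D3:**
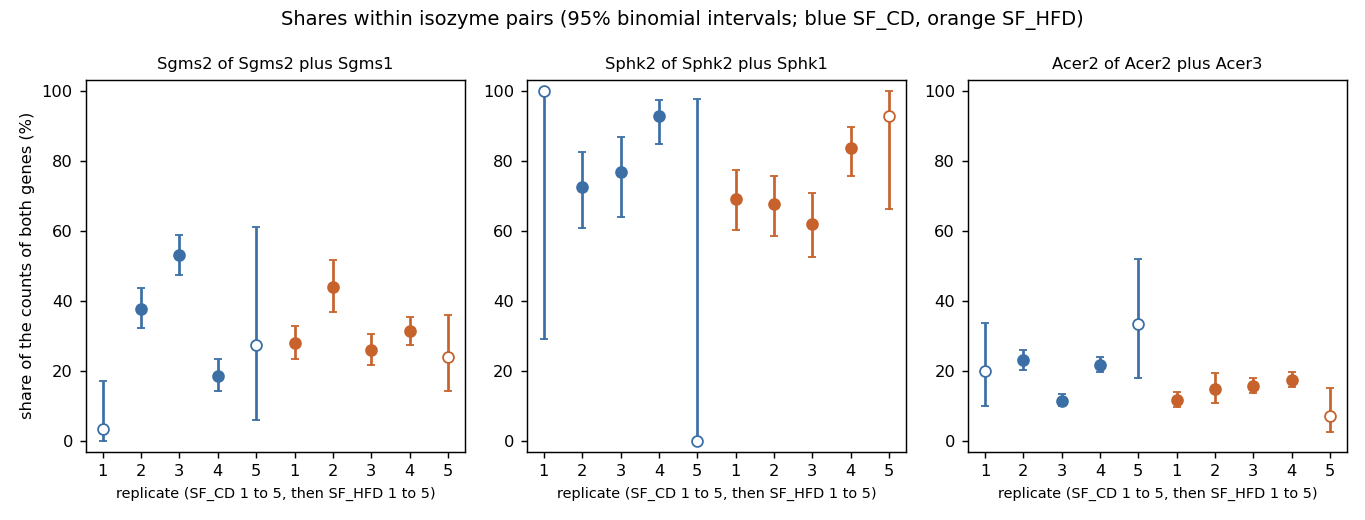
Share of 1 gene in the summed counts of its isozyme pair (vertical axes, percent) in each library, with exact 95% binomial intervals; open points have under 1000000 counts. The Acer2 share is 7.23% to 17.4% in SF_HFD and 11.5% to 33.3% in SF_CD, and the Sphk2 share of the SF_CD library 5 rests on 1 count.

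Ugcg, which attaches glucose to ceramide as the committed step of most glycosphingolipids (chromosome 4, 59189257 to 59222833, plus strand), was at 74.4, 9.04, 7.43, 15.7 and 25.3 CPM in SF_CD. In SF_HFD it was at 18.5, 33.9, 10.4, 16.5 and 17.7 CPM. The highest value belonged to the SF_CD library 1, with 33 counts. The means were 19.4 ± 8.71 CPM in SF_HFD and 26.4 ± 27.7 CPM in SF_CD (log2 fold change -0.29 ± 0.58, 95% interval -1.52 to 0.94, edgeR adjusted p = 0.895). The sign rests on that library: the log2 fold change of Ugcg was 0.56 without the SF_CD library 1 and 0.87 without the 3 shallow libraries, and neither passed the test.

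Asah1 and Ugcg ran in opposite directions across the 10 libraries, a pair singled out after its values were seen. Pearson's r of their log2 CPM was -0.85 (permutation p = 0.00157) and Spearman's rho -0.77 (permutation p = 0.0125). Adjusted over the 45 pairs of enzymes compared, these were 0.0706 and 0.206, so the relation did not pass the correction. Without the SF_CD libraries 1 and 5, the farthest from the median of Asah1, r was -0.71, and in the 7 libraries over 1000000 counts it was -0.95. The 3 libraries lowest in Asah1 and highest in Ugcg, the SF_CD libraries 1 and 5 and the SF_HFD library 2, were also those with the most ribosomal RNA, 21.99%, 14.5% and 7.19% of counts. The part of RNA content in this relation was not tested. Over the 45 pairs, r ranged from -0.85 to 0.74 with a median of 0.02, and no pair passed the correction, although 9 had an unadjusted permutation p for r under 0.05. Sgms1 and Sgpl1 came second with an r of -0.79, which turned to 0.63 without the SF_CD library 1 and the SF_HFD library 5.

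**Figure D4:**
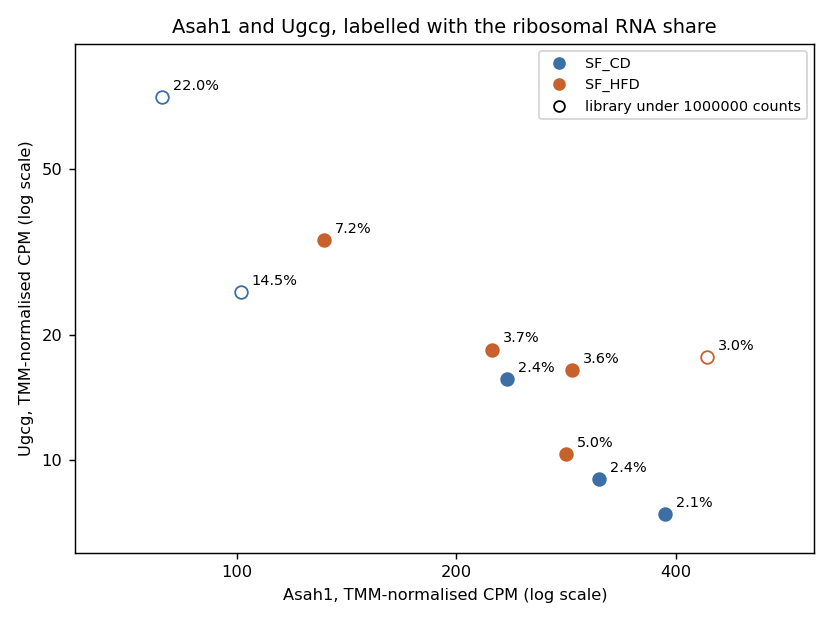
Asah1 (horizontal) against Ugcg (vertical), both in TMM-normalised CPM on log scales, for the 10 serine-free libraries, each labelled with its share of ribosomal RNA, mitochondrial rRNA included. The libraries with 21.99%, 14.5% and 7.19% lie at the low end of Asah1 and the high end of Ugcg.

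The sphingosine kinases had the largest positive estimates together with Smpd1, on few counts. Sphk1, the cytosolic, growth factor-responsive kinase (chromosome 11, 116530925 to 116536674, plus strand), was at 0, 2.20, 1.96, 0.455 and 1.95 CPM in SF_CD and at 3.35, 9.22, 4.16, 1.51 and 1.26 CPM in SF_HFD. The SF_HFD libraries 1 to 3 were above every SF_CD library, and the SF_HFD libraries 4 and 5 were within the SF_CD range. The means were 3.90 ± 3.21 CPM and 1.31 ± 1.01 CPM, a log2 fold change of 1.47 ± 0.71 (95% interval -0.02 to 2.97, edgeR adjusted p = 0.437). Without the 3 shallow libraries, where Sphk1 had 0, 1 and 1 counts, the log2 fold change was 1.54 (edgeR adjusted p = 0.333), and without the SF_HFD library 2 it was 0.91.

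Sphk2, a kinase with nuclear and mitochondrial forms (chromosome 7, 45709467 to 45718002, minus strand), was at 6.76, 5.84, 6.45, 5.77 and 0 CPM in SF_CD and at 7.51, 19.1, 6.75, 7.62 and 16.4 CPM in SF_HFD. The SF_HFD libraries 2 and 5 stood above the rest, and the other 3 were close to SF_CD. The 0 in the SF_CD library 5 allows a level of up to 5.84 CPM by the limit of 3 counts, and up to 7.18 CPM by the exact Poisson interval. The 6.76 CPM of the SF_CD library 1 rests on 3 counts. The means were 11.5 ± 5.83 CPM and 4.96 ± 2.81 CPM, a log2 fold change of 1.06 ± 0.53 (95% interval -0.07 to 2.19, edgeR adjusted p = 0.456). In the deep libraries Sphk2 was at 5.77 to 6.45 CPM in SF_CD and 6.75 to 19.1 CPM in SF_HFD, without overlap, as for 9.47% of all genes in that direction, and the fitted log2 fold change was 0.75 (edgeR adjusted p = 0.401). The exons of Sphk2 share 539 bases with Dbp and 373 bases with Rpl18 on the opposite strand. The libraries keep strand, but whether counting used it is not given in the sources used here. Rpl18, a ribosomal protein gene, averaged 1465 ± 292 CPM in SF_HFD against 1321 ± 587 CPM in SF_CD.

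Sphk2 gave most of the kinase counts in 9 of the 10 libraries. Its share was 100%, 72.6%, 76.7%, 92.7% and 0% in SF_CD, on 3, 73, 60, 82 and 1 counts, and 69.2%, 67.5%, 61.9%, 83.5% and 92.9% in SF_HFD, on 14 to 123 counts. The mean shares were 75.0% ± 12.8 and 68.4% ± 39.9 (exact two-sided permutation test, p = 0.873, adjusted p = 0.873). The difference of 6.58 points rests on the SF_CD library 5, with 1 count, and was -10.5 points without it.

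Sgpl1, the lyase (chromosome 10, 61098642 to 61147703, minus strand), was at 2.25, 11.1, 19.1, 20.7 and 11.7 CPM in SF_CD and at 18.0, 23.5, 19.9, 25.8 and 3.79 CPM in SF_HFD. Its 2 lowest values, in the SF_CD library 1 and the SF_HFD library 5, rest on 1 and 3 counts. The means were 18.2 ± 8.61 CPM and 13.0 ± 7.36 CPM (log2 fold change 0.42 ± 0.49, 95% interval -0.61 to 1.46, edgeR adjusted p = 0.795).

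Levels of different genes were compared as CPM per kilobase of annotated exons, averaged over the 10 libraries. Asah1 was the highest at 73.3 ± 35.3 CPM per kilobase, first in all 10 libraries and above 93.4% of the genes tested. Acer3 followed at 5.54 ± 2.20, Ugcg at 4.39 ± 3.79, Sgms1 at 2.89 ± 1.76, Sgpl1 at 2.54 ± 1.31, Acer2 at 2.38 ± 0.848, Sphk2 at 1.98 ± 1.33 and Sgms2 at 1.88 ± 1.11 CPM per kilobase. Smpd1 was at 1.304 ± 0.961 and Sphk1, the lowest, at 0.546 ± 0.550 CPM per kilobase, above 8.08% of the genes tested. Apart from Asah1, neighbours in this order did not differ beyond their spread: each was above the next in 3 to 8 of the 10 libraries. Sgms1 was above Sgpl1 in 3 of 10 libraries only, its mean being raised by the SF_CD library 1 and the SF_HFD library 5. With the mean transcript length in place of all exons, Asah1 stayed first and Sphk1 last, while Sgms1 passed Ugcg and Sgms2 passed Acer2 and Sphk2. Asah1 and Acer3 together gave 49.3% to 84.2% of the counts of the 10 enzymes in a library.

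For enzymes whose log2 CPM averaged 3 or more, the genes whose log2 CPM followed them most closely over the 10 libraries were taken from 7313 others, as a description. Asah1 was followed by Pafah1b3 (Pearson's r = 0.98, Spearman's rho = 0.98) and Vmp1 (r = 0.97, rho = 0.93), and Ugcg by Usp24 (r = 0.98, rho = 0.88) and Thra (r = 0.97, rho = 0.96). Acer2 was followed by Nicn1 and AI987944 (r = 0.93 and 0.92), Acer3 by Cyb561a3 and Sirt2 (0.92 and 0.91), and Sgms2 by Snapin and AI413582 (0.93 for each). In the 7 deep libraries these 10 values of r remained between 0.86 and 0.98. For Sgms1 the closest genes were Atp2c1 and Fastk (0.96 and 0.94) and for Sgpl1 Orc2 and Ldb1 (0.96 and 0.95), with r of 0.46 to 0.80 in the deep libraries. All these values come from the same 10 libraries, which differ in depth and ribosomal RNA, and the part of either was not tested.

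Among 44 other genes of sphingolipid turnover, 32 were tested and none was called by edgeR (0.323% of all genes were). At an unadjusted p under 0.05 there were 5 of the 32, beside 11.6% of all genes. DESeq2 called 2, of 382 over the whole table, and 1 of them, S1pr1, was not among the 32, while limma-voom called 1 of 168. Of the 32, 17 had a log2 fold change above 0 and 15 below, with a median of 0.21. The gene of each role with the highest CPM over both diets is given here. Plpp2, a lipid phosphate phosphatase that can remove the phosphate of sphingosine-1-phosphate outside the cell, averaged 57.4 ± 8.80 CPM in SF_HFD against 19.6 ± 7.31 CPM in SF_CD (log2 fold change 1.496 ± 0.35, 95% interval 0.76 to 2.23, edgeR adjusted p = 0.0830). Its SF_HFD libraries, at 48.1 to 70.0 CPM, were all above the SF_CD libraries, at 11.7 to 30.5 CPM. Plpp2 was called by DESeq2, by limma-voom and, with edgeR, without the SF_CD library 2 (edgeR adjusted p = 0.0486). Spns2, the exporter of sphingosine-1-phosphate, was at 68.5 ± 34.5 CPM against 29.4 ± 27.4 CPM and overlapped between the diets (log2 fold change 1.25 ± 0.57, edgeR adjusted p = 0.402).

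B4galt6, which adds galactose to glucosylceramide, averaged 61.3 ± 38.9 CPM in SF_HFD against 26.4 ± 9.14 CPM in SF_CD (log2 fold change 1.24, edgeR adjusted p = 0.277). Gltp, a glycolipid transfer protein, was at 48.8 ± 9.11 CPM against 31.5 ± 20.5 CPM, and Smpd3, a neutral sphingomyelinase, at 15.9 ± 12.3 CPM against 35.2 ± 49.96 CPM. The SF_CD mean of Smpd3 is carried by the SF_CD library 5, at 123 CPM. Psap, the precursor of the saposins that help lysosomal enzymes reach their lipids, was at 152 ± 30.9 CPM against 129 ± 46.8 CPM. Aldh3a2, which oxidises the fatty aldehyde that Sgpl1 releases, was at 25.5 ± 8.42 CPM against 19.9 ± 9.95 CPM, and the ceramidase Asah2 at 1.73 ± 1.29 CPM against 0.714 ± 0.695 CPM. Besides Plpp2, the groups did not overlap for Plekha8, a glycolipid transfer protein (9.53 to 20.2 CPM in SF_HFD, 2.25 to 8.93 CPM in SF_CD), and B4galnt1, a ganglioside synthase (6.52 to 11.9 CPM against 0 to 4.52 CPM). Both were named after their values were seen, both were higher in SF_HFD, and 2.23% of all genes tested were separated in that direction. In the SF_CD libraries 1 and 5, Plekha8 was at 2.25 and 5.84 CPM and B4galnt1 at 4.51 and 0 CPM. There 3 counts correspond to 6.76 and 5.84 CPM, so the separation from these shallow libraries rests on few counts.

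**Figure D5:**
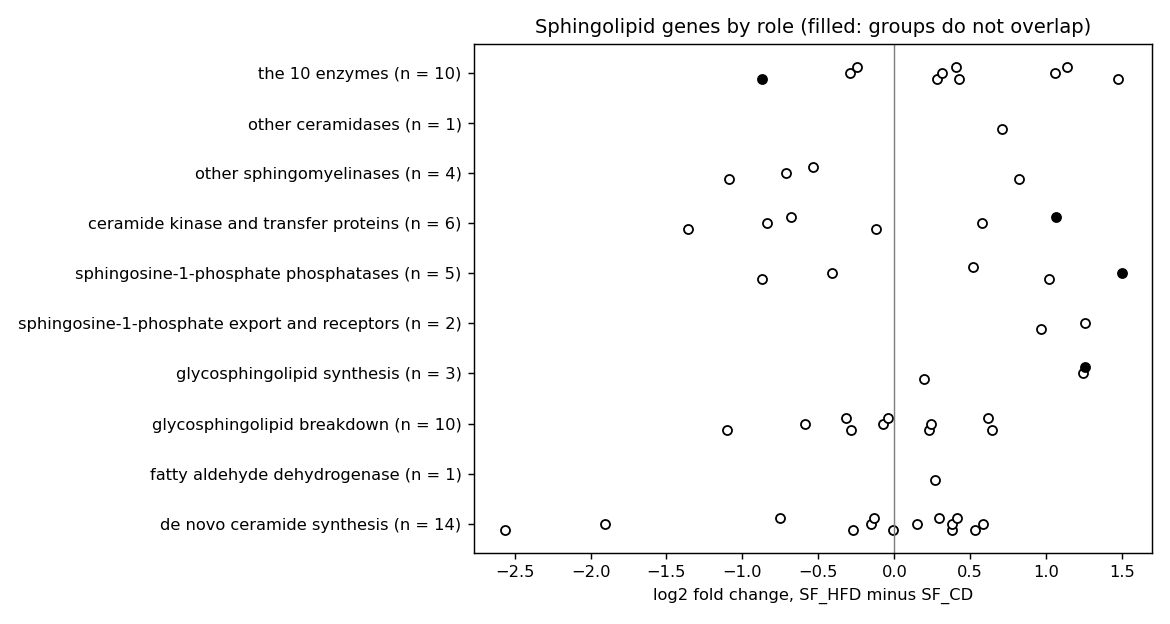
Log2 fold changes of SF_HFD minus SF_CD (horizontal axis) for tested sphingolipid genes, 1 row per role; filled points mark genes whose groups do not overlap. The 4 filled points are Acer2, at -0.87, and Plekha8, Plpp2 and B4galnt1, between 1.06 and 1.496.

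In de novo synthesis, which makes new ceramide, 14 of 17 genes were tested. EdgeR called none (0.323% of all genes were), and 2 of the 14 had an unadjusted p under 0.05, beside 11.6% of all genes. DESeq2 called 2, of 382 over the whole table, and 1 of them, Cers4, was not among the 14, while limma-voom called 0 of 168. Of the 14, 7 lay above 0 and 7 below, with a median log2 fold change of 0.07. Ormdl2, a regulator of serine palmitoyltransferase and the one with the highest CPM over both diets, averaged 155 ± 45.6 CPM in SF_HFD against 185 ± 99.5 CPM in SF_CD.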

How the data were processed

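RNA was sequenced from 18 mouse libraries, of which the 10 serine-free ones were used. The authors deposited estimated counts per gene as whole numbers, which per the submitters' processing notes came from Salmon 1.3.0 and mm10. Neither the annotation release nor the strand setting is given in the sources used here. Of the 54354 rows, 1243 had no symbol. Genes passing edgeR's filterByExpr were TMM-normalised and tested for SF_HFD against SF_CD with the edgeR quasi-likelihood test (edgeR 4.0.16, R 4.3.3), without a replicate block, and Benjamini-Hochberg adjustment over all genes tested. Isozyme shares were tested by exact permutation, and correlations by 100000 permutations of log2 CPM with a prior count of 2. Nothing in the labels states that replicates came from different animals or cultures, so every p-value reflects only how these libraries vary, possibly for technical reasons. The test was tried on simulated data. Alternatives were RLE and upper quartile normalisation, other filters, DESeq2 1.42.0, limma-voom (limma 3.58.1), a replicate block, and leaving out libraries. Positions are from GENCODE on mm10. Binomial and Poisson intervals (95%) and the limit for a count of 0 (3 counts) cover counting error only. The text names all 10 enzymes, the 2 genes with the closest pattern for each enzyme whose log2 CPM averaged 3 or more, and the gene of each pathway list with the highest CPM over both diets. The enzymes and lists were chosen with earlier results of these data known. The level of an immune marker in the lists is not reported here.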

Additional observations from a re-analysis of the deposited data

Results flagged for a closer look

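Over the 26 groups of 5 values checked, 5 held 1 library far from the other 4. Chance flags about 1 in 20 groups where all values vary alike. These libraries differ in depth, so no excess over chance is read from the 5 flags, and the level and share of Sphk2 rest on the same 0 count. Sgms1 stood at 65.4 CPM in the SF_CD library 1, beside 15.6 to 19.9 CPM in the other SF_CD libraries. It also stood at 64.4 CPM in the SF_HFD library 5, beside 23.7 to 27.8 CPM. Ugcg was at 74.4 CPM in the SF_CD library 1, beside 7.43 to 25.3 CPM. Sphk2 was at 0 CPM in the SF_CD library 5, beside 5.77 to 6.76 CPM, and its share of kinase counts there was 0% on 1 count, beside 72.6% to 100%. All 5 values come from the libraries with under 1000000 counts.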

How the results depend on the processing

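None of the 10 enzymes was called under any alternative run. Acer2, Smpd1, Sphk1, Sphk2 and Sgpl1 kept their direction under all 18 alternatives, but Sphk2 was at 0.45 and Sphk1 at 0.94 with limma-voom, Sphk1 at 0.91 without the SF_HFD library 2, and Sgpl1 at 0.24 without the SF_CD library 1, and at 0.28 and 0.64 when SF_HFD libraries 4 and 5 were left out in turn. Over the alternatives Asah1 ranged from -0.43 to 0.57, Acer3 from -0.56 to 0.11 and Sgms2 from -0.074 to 1.04. The genes called over the whole table numbered 38, but 78 with no filter, 73 with a stricter filter, 382 with DESeq2, 168 with limma-voom, and 16 to 88 when 1 library was left out (16 without the SF_HFD library 4, 88 without the SF_CD library 2). With the replicate number as a block, 22 were called. Replicate numbers did not pair the libraries: correlations of same-numbered deviations ran from -0.36 to 0.23, and 1 of 5 libraries matched its own number best. Without the 3 shallow libraries the log2 fold changes turned to -0.43 for Asah1, -0.048 for Sgms2 and 0.87 for Ugcg, and with limma-voom to -0.029, -0.074 and 0.50. Ugcg was 0.019 with the block, and -0.61 to 0.56 leaving out 1 library (0.56 without the SF_CD library 1), Acer3 0.11 without the SF_CD library 3, and Sgms1 -0.044 without the SF_HFD library 5 to 0.81 without the SF_CD library 1. The difference in the Sgms2 share was -5.32 points from summed counts, -4.17 without the shallow libraries and -3.55 to 8.90 leaving out 1 library, including -0.742 without the SF_HFD library 2. That of Sphk2 was -10.1 from summed counts, -10.2 without the shallow libraries and -10.5 to 14.5 leaving out 1 library, and that of Acer2 -3.40 from summed counts, -3.89 without the shallow libraries and -11.2 to -5.73 leaving out 1 library. The -11.2 is without the SF_CD library 3, the only SF_CD library that lay among the SF_HFD values. Other sphingolipid genes called were 2 with DESeq2, 1 with limma-voom and 0 to 1 leaving out 1 library, and de novo genes 2 with DESeq2. Per kilobase of mean transcript length, levels were 177 CPM for Asah1, 20.1 for Acer3, 17.6 for Sgms1, 14.98 for Ugcg, 9.26 for Sgpl1, 6.28 for Sgms2, 5.495 for Acer2, 3.47 for Sphk2, 2.46 for Smpd1 and 1.71 for Sphk1, since the lengths are shorter. The cause of the other changes was not tested. In the shallow libraries 3 counts correspond to 3.79 to 6.76 CPM, which limits Smpd1, Sgms2, Sphk1, Sphk2 and Sgpl1.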

Other observations

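Kdsr, which reduces the first ketone intermediate of ceramide synthesis, was at 72.1, 19.2, 14.6, 31.04 and 103.2 CPM in SF_CD and at 13.2, 6.68, 19.98, 11.9 and 7.58 CPM in SF_HFD (edgeR log2 fold change -1.90, adjusted p = 0.174). DESeq2 called it (adjusted p = 0.0208) and limma-voom did not (log2 fold change -0.52, adjusted p = 0.454). The SF_CD libraries 1 and 5, the shallowest, hold its highest values. S1pr1, a receptor for sphingosine-1-phosphate, was at 12.2 and 25.3 CPM in the SF_CD libraries 4 and 5 and at most 0.981 CPM in the other 8, and was called by DESeq2 but did not pass the edgeR filter. Cers4, a ceramide synthase, showed the same 2 libraries, at 7.44 and 19.5 CPM, with at most 0.661 CPM elsewhere. S1pr1 and Cers4 were at 0 CPM in the SF_CD library 1 and the SF_HFD library 5. There 3 counts correspond to 6.76 and 3.79 CPM. These 3 genes were named after their values were seen.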
